A study of Mus musculus with 4 samples.

Results

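The genes described here are 44 mouse genes of the lysosome, out of 21946 genes that had a named probe on the array. They were taken from a list of lysosomal hydrolases, cathepsins and membrane proteins, each matched by the symbol of its probes in the platform annotation, and every one of the 44 had at least 1 probe. Their mRNA was measured on 4 Illumina bead arrays, in RAW G9 cells. These are 1 reporter clone derived from RAW264.7, a line of mouse macrophages. Total RNA came from cells given lipopolysaccharide (LPS, from Salmonella minnesota R595) at 10 ng/ml for 4 h (2 arrays, LPS A and B) and from cells without LPS (2 arrays, untreated A and B). The labels give the untreated cells an incubation time of 0 h, whereas the study's methods describe the same incubation in medium alone, with biological duplicates. The cells of all 4 arrays carry the same lentiviral cassette, in which the Rela promoter drives a GFP-RelA fusion and the Tnf promoter drives a destabilised mCherry. The labels name the line RAW264.7 and not the clone.

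Lysosomes are acidic organelles in which soluble hydrolases cut proteins, glycans, lipids and nucleic acids that arrive by endocytosis, phagocytosis or autophagy. A proton pump, the V-ATPase, acidifies them, heavily glycosylated membrane proteins line them, and channels and transporters carry ions and the products of digestion across the membrane. In macrophages they degrade engulfed microbes and supply peptides for presentation on MHC class II. The MiT/TFE transcription factors Tfeb, Tfe3 and Mitf bind E-boxes in the promoters of many lysosomal genes.

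The E-box core is CACGTG, and the MiT/TFE factors are known to favour it within longer palindromes, so the promoters of the 44 genes were read for it. RefSeq promoter windows of GRCm38.p6, from 250 bases before to 50 bases after the gene start, were at hand for 39 of the 44 genes. CACGTG occurred in 12 of the 39 (30.8%), against 8.09% of the 27025 genes with a window. The 8-base palindrome TCACGTGA occurred in 7 (17.9%), against 1.12% of all genes. Both motifs read the same on either strand, and each TCACGTGA holds a CACGTG. A longer palindrome was also counted, with a G before TCACGTGA and a C after it. It occurred in 0 of the 39 genes, against 0.37% of all genes. These counts describe letters in a fixed window and not occupied sites. The 7 genes with TCACGTGA are shown with 1 window each and Ctsa with both of its windows. Gla also held a second TCACGTGA, which is not shown. Each window holds 30 bases on the strand of the gene, with TCACGTGA in capitals.
Ctsa, chr2:164833749-164833778, plus strand: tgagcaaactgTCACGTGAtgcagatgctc
Ctsa, chr2:164833766-164833795, plus strand: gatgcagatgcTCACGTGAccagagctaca
Ctsd, chr7:142387908-142387937, minus strand: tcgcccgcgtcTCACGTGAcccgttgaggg
Ifi30, chr8:70766842-70766871, minus strand: atccaaaaactTCACGTGAccagacatgct
Gla, chrX:134601215-134601244, minus strand: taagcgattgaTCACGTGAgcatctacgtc
Mcoln1, chr8:3500462-3500491, plus strand: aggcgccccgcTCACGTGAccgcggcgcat
Atp6v0d1, chr8:105566050-105566079, minus strand: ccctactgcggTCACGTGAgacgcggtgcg
Atp6v1a, chr16:44139373-44139402, minus strand: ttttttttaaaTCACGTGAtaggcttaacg

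The cores of the Ctsa palindromes begin 12 bases before the gene start and at base 6 of the transcript, and that of Atp6v0d1 begins 3 bases before the start. Lamp1 held 4 copies of the core, the most of the 12 genes, all within 61 bases before the gene start and none of them in the palindrome. Their cores are in capitals below, on the plus strand of chromosome 8, because they are the densest group in the set.
Lamp1, chr8:13159088-13159117: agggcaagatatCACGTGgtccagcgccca
Lamp1, chr8:13159104-13159133: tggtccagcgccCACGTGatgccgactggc
Lamp1, chr8:13159121-13159150: gatgccgactggCACGTGaccacatcacgt
Lamp1, chr8:13159134-13159163: acgtgaccacatCACGTGcggaacggagcc

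**Figure D1:**
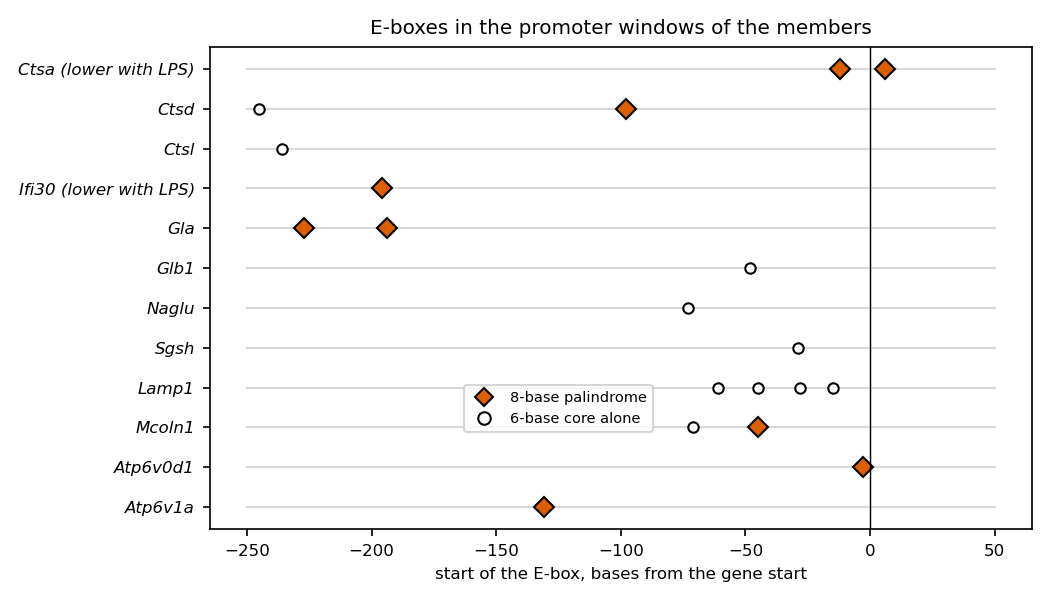
Start of each CACGTG, in bases from the gene start, in the promoter windows of the 12 genes that held one. Diamonds mark the palindrome TCACGTGA (7 genes), open circles the core alone, and grey lines the window from 250 bases before to 50 bases after the start.

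The arrays bear on every value below. Between 16380 and 17892 of the 45281 probes per array were detected, which means a detection p-value under 0.1 against the array's negative controls. The median probe of each array was thus not a detected one. Before any correction the median signal was 104 and 105 on LPS A and B and 118 and 114 on untreated A and B. The values given are log2 signals after background correction and quantile normalization, and a probe was tested when both arrays of LPS cells, or both of untreated cells, detected it. The LPS arrays differed from each other by a median of 0.203 over the tested probes and the untreated arrays by 0.105. The LPS arrays came from 2 slides and both untreated arrays from 1 further slide, so that slide and treatment cannot be told apart. In RNA of a whole culture, fewer cells of a kind and less RNA per cell cannot be told apart either. Of 11 macrophage markers 10 were detected, whereas none of the markers with a probe were detected for dendritic cells (0 of 8), T cells (0 of 5) or B cells (0 of 5). Of fibroblast markers 1 of 10 was detected and of neutrophil markers 2 of 9, of which S100a8 was higher with LPS by 0.85 (adjusted p = 0.0039, limma). The normalized values of these 2, summed on the linear scale, were 118 to 122 on the LPS arrays and 69.8 to 79.1 on the untreated arrays. Before correction and normalization the signal of S100a8 was 154 and 142 with LPS and 160 and 155 without. That of the other marker, Elane, was 111 and 116 with LPS and 124 and 123 without. The part of these markers in the results below was not tested.

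Most of the 44 genes were expressed, and those that changed with LPS changed little and mostly downward, although scaling to the median of the tested probes gave as many rises as falls. A probe was detected for 40 of them, 38 in both conditions and 2 (Gla and Sgsh) in untreated cells only, where 46.3% of all genes with a named probe were detected. Ctsh, Acp5, Atp6v0d2 and Tfeb were not detected in either condition. Between conditions, 10 of the 40 were lower with LPS (25%), where 21.1% of the 10157 genes tested were lower, and 1 was higher, where 13.6% of all genes were higher (limma, Benjamini-Hochberg adjusted p under 0.05 over 17211 probes). The share that fell was close to that of all genes. The other 29 did not pass. The median log2 change of the 40 was -0.29 (-0.26 with Gla and Sgsh at their bounds, given below), with a range from -0.79 to 0.53, and that of all genes was -0.09. None of the 40 changed by more than 1 on the log2 scale, whereas 10.8% of all genes did, but 15 of the 40 and 33.2% of all genes did after scaling to the median of all probes. Both LPS arrays lay below both untreated arrays in 25 of the 40, against 42.2% of all genes, and above them in 5, against 28.1%.

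The calls depended on the scaling and on single arrays. Of all genes past the threshold, 39.2% were higher with LPS, against 7.26% when arrays were scaled to the median of all probes and 63.0% when scaled to the median of the tested probes. These scalings moved the median of all genes to -0.69 and 0.11, and the counts of members to 0 higher and 31 lower and to 6 higher and 6 lower. The 10 genes that fell were negative under each of the 15 alternatives run, but the sizes moved: across them the log2 change ran from -1.67 to -0.53 for Smpd1, -1.38 to -0.48 for Ctsa, -1.37 to -0.57 for Ifi30, -1.21 to -0.41 for Psap and -1.01 to -0.21 for Gusb. Without untreated array A no member passed (limma, adjusted p from 0.0665 for Gusb to 0.277 for Neu1 among the 10), although 9 were lower and 1 higher at an unadjusted p under 0.05. Without untreated array B only Ifi30 and Psap passed. With slide as a random block only Psap and Smpd1 did (adjusted p = 0.0487 for each, limma).

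**Figure D2:**
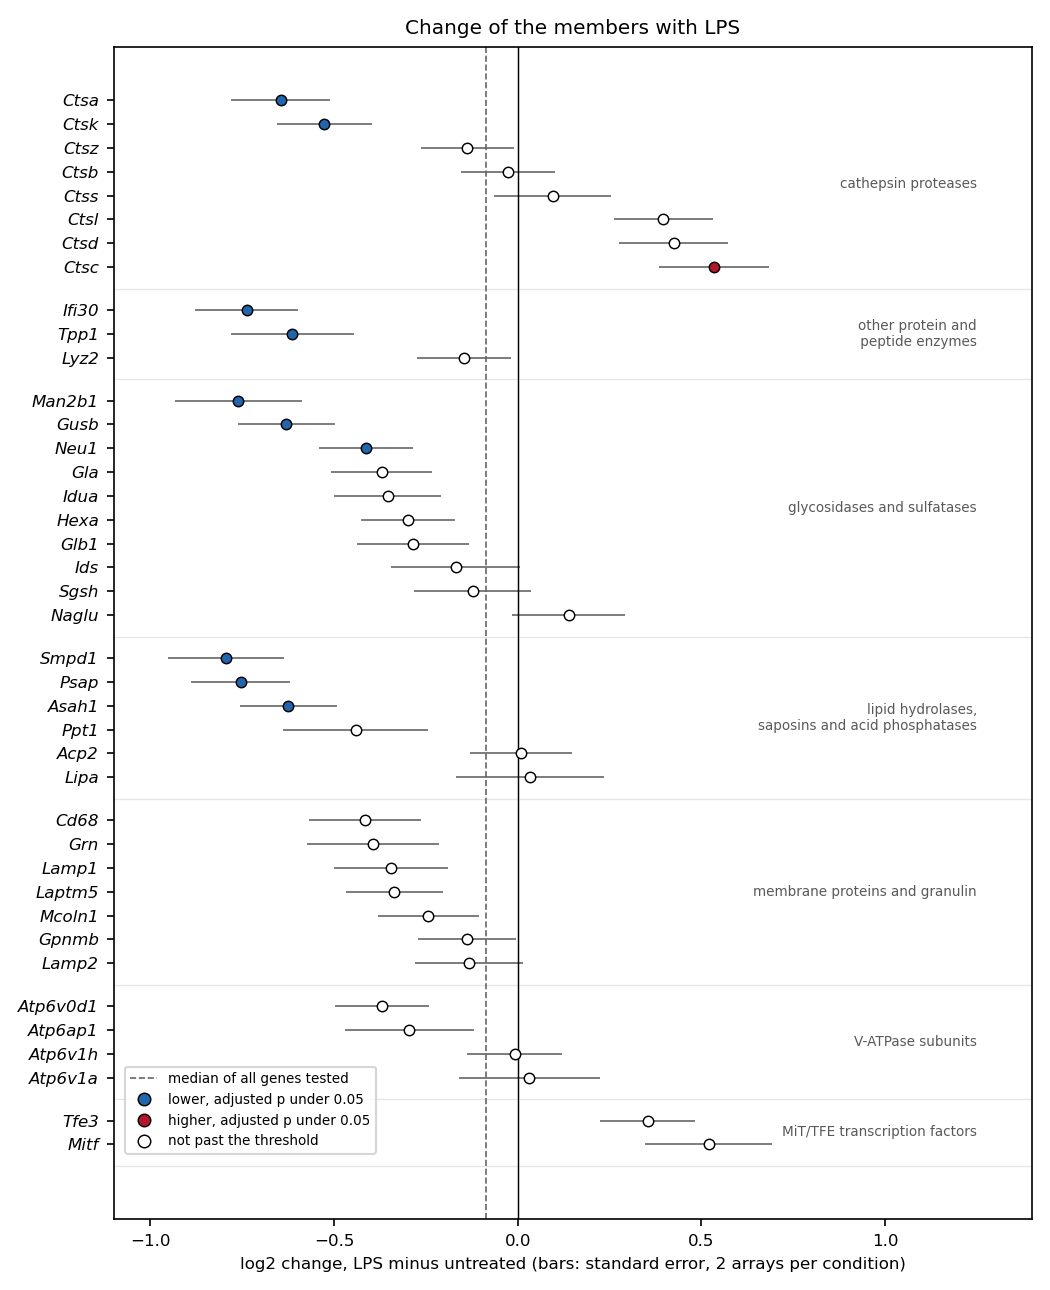
Log2 change, LPS minus untreated, of the 40 genes tested, by role, with the standard error of the fit as bars (2 arrays per condition). The 10 filled blue points lie between -0.79 and -0.41 and kept their sign under every scaling, while the red point, Ctsc at 0.53, was -0.07 after scaling to the median of all probes; the dashed line marks the median of all genes, -0.09.

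Among the cathepsins, Ctsa and Ctsk fell, Ctsc rose, and the other 5 detected genes did not pass. Ctsa encodes cathepsin A, a serine carboxypeptidase that also protects the sialidase Neu1 and beta-galactosidase from degradation. Its log2 values were 9.79 and 9.65 in LPS A and B and 10.41 and 10.32 in untreated A and B. Both LPS arrays lay below both untreated arrays, and the change was -0.65 (SE 0.134, adjusted p = 0.0105, limma). On the linear scale Ctsa fell by 36.1%. Of the 4 other tested probes of Ctsa, 1 also fell (-0.95, adjusted p = 0.0028, limma) and 3 did not pass, at -0.33, -0.40 and -0.09.

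Ctsk, the collagen-cutting cathepsin K known best from osteoclasts, read 10.32 and 10.26 with LPS and 10.77 and 10.86 without. The conditions did not overlap, and the change was -0.53 (SE 0.130, adjusted p = 0.020, limma). Cells of this line can become osteoclasts under RANKL, so the other osteoclast markers were read too. Acp5 and Atp6v0d2 were not detected in either condition, nor were Calcr, Ocstamp and Itgb3. Of the 6 detected markers, Nfatc1 (-0.91) and Tnfrsf11a, the receptor of RANKL (-0.86), fell with Ctsk, whereas Mmp9 (2.70) and Dcstamp (0.88) rose and Oscar was at 0.28 with no call. The normalized values of the 5 detected markers other than Ctsk, summed on the linear scale, were 674 to 714 with LPS and 596 to 605 without. That sum adds probes of different brightness and is not the signal before correction. The part of these markers in the change of Ctsk was not tested.

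Ctsc, which encodes the dipeptidyl peptidase that activates granule serine proteases, was the only member that rose. Its probe read 5.70 and 5.98 with LPS and 5.36 and 5.26 without. The change was 0.53 (SE 0.149, adjusted p = 0.032, limma), and it turned to -0.07 with no call after scaling to the median of all probes. It passed in 7 of the 15 alternatives. The signal of this probe before correction and normalization was 127 and 130 with LPS and 152 and 137 without. A second, dimmer probe of Ctsc changed by 0.38 (adjusted p = 0.061, limma).

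Ctsd, an aspartic protease, and Ctsl, a cysteine protease, did not pass, although both LPS arrays lay above both untreated arrays. Ctsd read 6.69 and 6.41 with LPS and 6.15 and 6.10 without, a change of 0.42 (adjusted p = 0.064, limma). Ctsl read 6.46 and 6.32 against 6.05 and 5.95, a change of 0.40 (adjusted p = 0.061, limma). After scaling to the median of all probes both were negative, at -0.36, and after scaling to the median of the tested probes both passed as higher. Ctsb, a cysteine protease, was at -0.03, Ctss, which trims the MHC class II invariant chain, at 0.10, and the carboxypeptidase Ctsz at -0.14, none of them with a call. The Ctsb probe read 13.61 and 13.56 with LPS and 13.61 and 13.61 without, near the highest value on the arrays, 14.71. Ctsb passed as higher after scaling to the median of the tested probes (0.61, adjusted p = 0.00706, limma), and Ctss as lower after scaling to the median of all probes (-0.78, adjusted p = 0.00201, limma).

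Of the other protein and peptide enzymes, with which lysozyme was grouped here, Ifi30 and Tpp1 fell. Ifi30 encodes the lysosomal thiol reductase GILT, which opens disulfide bonds of antigens. It read 10.56 and 10.51 with LPS and 11.38 and 11.17 without. The LPS arrays were both lower, by 0.74 on average (SE 0.139, adjusted p = 0.00704, limma), so that Ifi30 fell by 40.0%. The second probe of Ifi30 fell too (-0.52, adjusted p = 0.024, limma).

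Tpp1, a tripeptidyl peptidase lost in a childhood neuronal storage disease, read 7.03 and 6.66 with LPS and 7.37 and 7.55 without. LPS B was the lowest array, and the groups did not overlap (change -0.61, SE 0.167, adjusted p = 0.029, limma). Lyz2, the lysozyme of macrophages, was at -0.15 by its brightest probe, with no call. That probe read 14.01 and 14.01 with LPS and 14.16 and 14.15 without, near the highest value on the arrays, 14.71. Whether such bright probes understate a change was not tested. A much dimmer Lyz2 probe read 5.47 and 5.74 with LPS and 7.15 and 7.20 without, a change of -1.57 (adjusted p = 0.000288, limma), while the other one was at -0.08. Only 1 of the 3 Lyz2 probes passed.

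**Figure D3:**
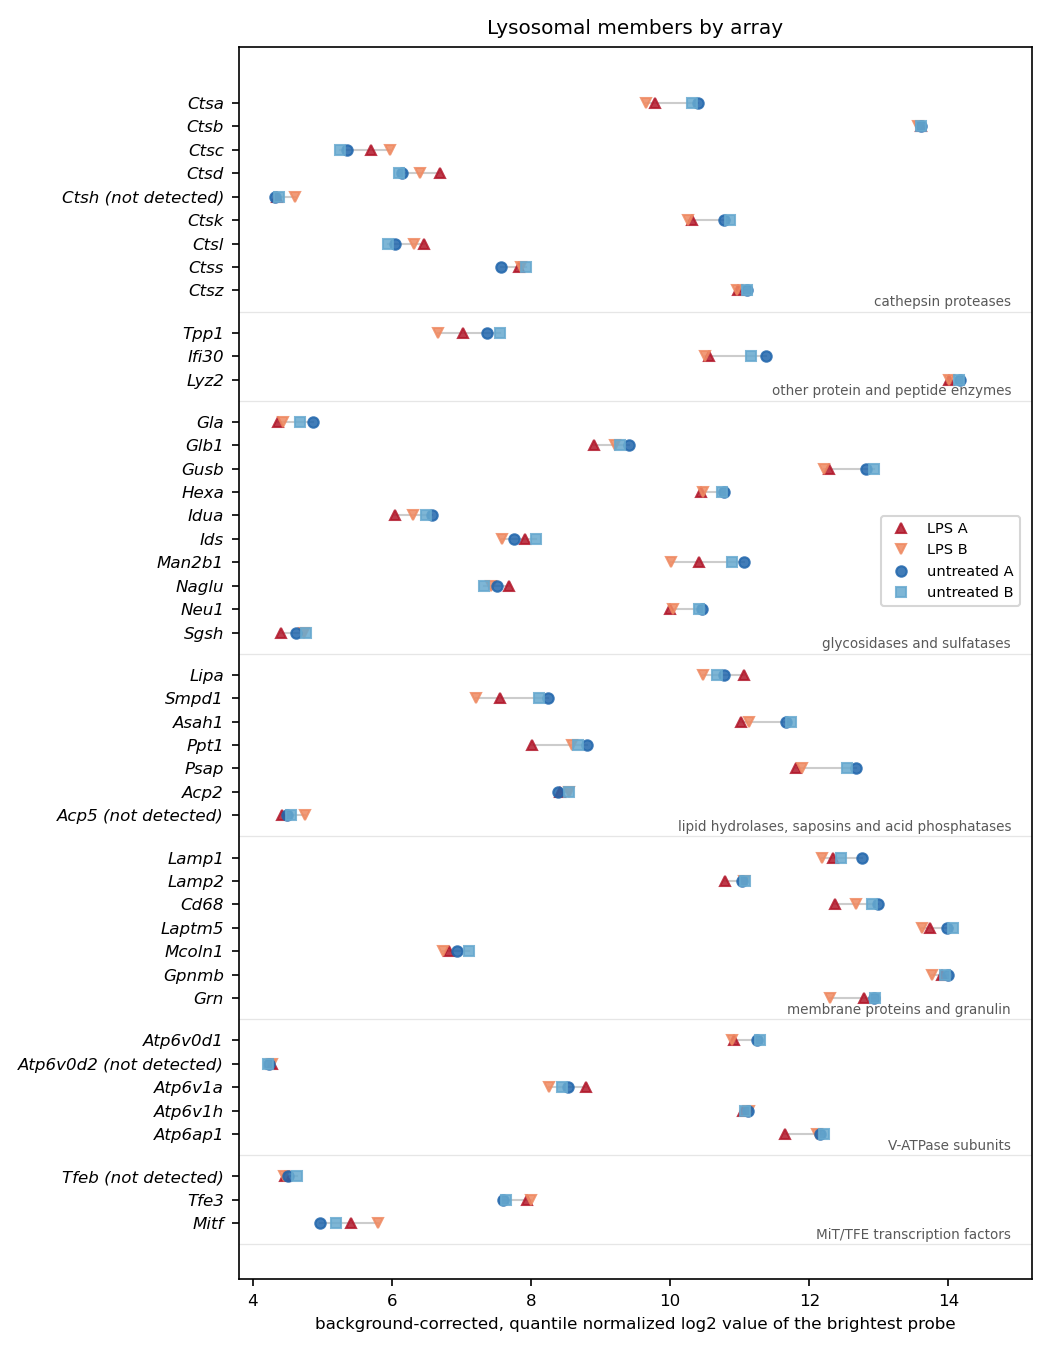
Log2 value (background-corrected, quantile normalized) of each of the 44 genes on each of the 4 arrays, by its brightest probe and grouped by role; red and orange triangles are LPS A and B, dark and light blue symbols untreated A and B, and grey lines join the values of a gene. Genes that fell, such as Psap and Ifi30, have both triangles left of both blue symbols, and the 4 genes not detected lie at the left edge. Positions of different genes are not comparable, because probes differ in brightness.

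Of the 10 glycosidases and sulfatases, 3 fell, where 21.1% of all genes did, and none rose, where 13.6% did. A negative change was seen in 9. At an unadjusted p under 0.05 the counts were 5 lower and 0 higher. The share of all genes with a negative change, or at an unadjusted p, was not counted, for this or the other groups. The median change of all genes was itself negative, at -0.09. Gusb, the beta-glucuronidase of glycosaminoglycan breakdown, read 12.28 and 12.21 with LPS and 12.82 and 12.93 without. Its arrays separated by condition (change -0.63, SE 0.132, adjusted p = 0.011, limma), and Gusb fell by 35.4%. All 3 Gusb probes fell, the others by 0.63 and 0.82.

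Man2b1, the lysosomal alpha-mannosidase, read 10.42 and 10.01 with LPS and 11.07 and 10.88 without. The change was -0.76 (SE 0.172, adjusted p = 0.015, limma), the largest of this group, and the LPS arrays differed from each other by more than the untreated arrays did. The dimmer Man2b1 probe read 7.53 and 8.14 with LPS and 7.59 and 7.66 without, which overlap (0.22, adjusted p = 0.460, limma). The call rests on 1 of the 2 tested probes, and a further probe was not detected.

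Neu1, the sialidase that cathepsin A protects, read 9.99 and 10.05 with LPS and 10.45 and 10.42 without. The conditions did not overlap, and the change was -0.41 (SE 0.128, adjusted p = 0.045, limma), the smallest of the 10 falls. Neu1 had 1 tested probe.

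Glb1, the beta-galactosidase of the same protective complex, read 8.91 and 9.20 with LPS and 9.41 and 9.27 without. The LPS arrays were lower in both cases, but the change of -0.29 did not pass (adjusted p = 0.195, limma). A second Glb1 probe, detected with LPS only, read 4.58 and 4.67 against 4.47 and 4.39, the opposite direction (0.19, at least 1.04-fold, no call). That bound sets the LPS mean against the lowest signal of a detected probe on each untreated array, or the probe's own where higher.

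Hexa, the alpha subunit of beta-hexosaminidase, was at -0.30, Idua, the iduronidase of heparan and dermatan sulfate breakdown, at -0.35, and the iduronate sulfatase Ids at -0.17, with no call. Hexa passed as lower in 4 of the 15 alternatives. Naglu, an enzyme of heparan sulfate breakdown, was at 0.14. Gla, the alpha-galactosidase of globotriaosylceramide, was detected in untreated cells only, where its mean was at least 1.12-fold that of LPS cells. Sgsh, the heparan sulfamidase, was likewise detected in untreated cells only, at least 1.03-fold, with overlapping arrays. Neither had a call. Both turned positive after scaling to the median of the tested probes, Gla at 0.34 with no call and Sgsh at 0.57 as a call (adjusted p = 0.0236, limma).

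Of the lipid hydrolases, saposins and acid phosphatases, 3 of the 6 genes tested fell, where 21.1% of all genes did. None rose, where 13.6% did. Counts were the same at an unadjusted p under 0.05. Smpd1, the acid sphingomyelinase that releases ceramide, read 7.55 and 7.22 with LPS and 8.24 and 8.12 without. Both LPS arrays were lower, and the change of -0.79 (SE 0.158, adjusted p = 0.00865, limma) was the largest fall of the 40 genes. On the linear scale Smpd1 fell by 42.3%. A second Smpd1 probe fell by 0.83 and another was at -0.36 with no call.

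Asah1, the acid ceramidase that acts on the ceramide so released, read 11.02 and 11.13 with LPS and 11.66 and 11.73 without. The groups were apart (change -0.62, SE 0.132, adjusted p = 0.011, limma), and its dimmer probe was at -0.37 (adjusted p = 0.086, limma). Psap, the precursor of the saposins that present sphingolipids to their hydrolases, read 11.80 and 11.90 with LPS and 12.67 and 12.54 without. The change was -0.75 (SE 0.134, adjusted p = 0.0055, limma), and Psap fell by 40.7%. Both probes of Psap fell, the second by 0.69.

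Lipa, the acid lipase that frees cholesterol and fatty acids, was at 0.03, and its LPS arrays, 11.06 and 10.47, lay on either side of the untreated arrays. Ppt1, a palmitoyl thioesterase, was at -0.44 with no call (SE 0.198, adjusted p = 0.130, limma), and LPS A and LPS B stood far apart, at 8.02 and 8.58 against 8.81 and 8.68 in untreated cells. Acp2, an acid phosphatase, was at 0.01 by its brightest probe, which read 8.41 and 8.54 with LPS and 8.39 and 8.55 without. Of its 3 dimmer probes, 2 were at 0.06 and 0.04, and the dimmest read 4.97 and 4.89 against 5.91 and 5.95 and fell by 1.002 (adjusted p = 0.0013, limma).

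The membrane proteins and granulin gave no call in either direction, although all 7 changes were negative, from -0.42 to -0.13, which scaling to the median of the tested probes turned positive for all but Mcoln1, between 0.02 for Cd68 and 0.40 for Gpnmb. After scaling to the median of all probes 6 of the 7 passed as lower, all but Gpnmb, with Mcoln1 at -1.08 (adjusted p = 0.00015, limma). In 6 of the 7 both LPS arrays lay below both untreated arrays, where 42.2% of all genes tested did so. At an unadjusted p under 0.05, 2 of them were lower and 0 higher (limma). Cd68, a macrophage sialomucin, was at -0.42 (12.37 and 12.68 against 12.98 and 12.89, adjusted p = 0.075).

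Lamp1, the major glycoprotein of the lysosomal lining, was at -0.34, Laptm5, a transporter-like protein of blood cells, at -0.34, and Grn, the precursor of granulins, at -0.39. Mcoln1, the calcium channel TRPML1, was at -0.24. Laptm5 passed as lower in 5 of the 15 alternatives. None of these 4 passed as analysed here.

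Lamp2, the partner of Lamp1, had 6 tested probes, the most of the set, with changes from -0.15 to 0.44 and no call. Its brightest probe read 10.78 and 11.06 with LPS and 11.04 and 11.07 without, so the conditions overlapped. The probe furthest from 0 read 6.34 and 6.72 with LPS and 6.12 and 6.06 without (0.44, adjusted p = 0.078, limma). Lamp2 makes transcripts with different last exons, and which of them a probe reads was not analysed here.

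Gpnmb, a transmembrane glycoprotein known as a target of the MiT/TFE factors, depended on the probe. Its brightest probe read 13.91 and 13.77 with LPS and 14.00 and 13.95 without, a change of -0.14 with no call. These values lie near the highest on the arrays, 14.71, and whether such bright probes understate a change was not tested. The 3 dimmer probes fell, by 0.72, 0.60 and 1.002 (adjusted p = 0.016, 0.020 and 0.0021, limma). For the first of them the values were 11.32 and 10.93 with LPS and 11.91 and 11.78 without, with no overlap. With the mean of all its tested probes Gpnmb fell by 0.62 (adjusted p = 0.013, limma).

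**Figure D4:**
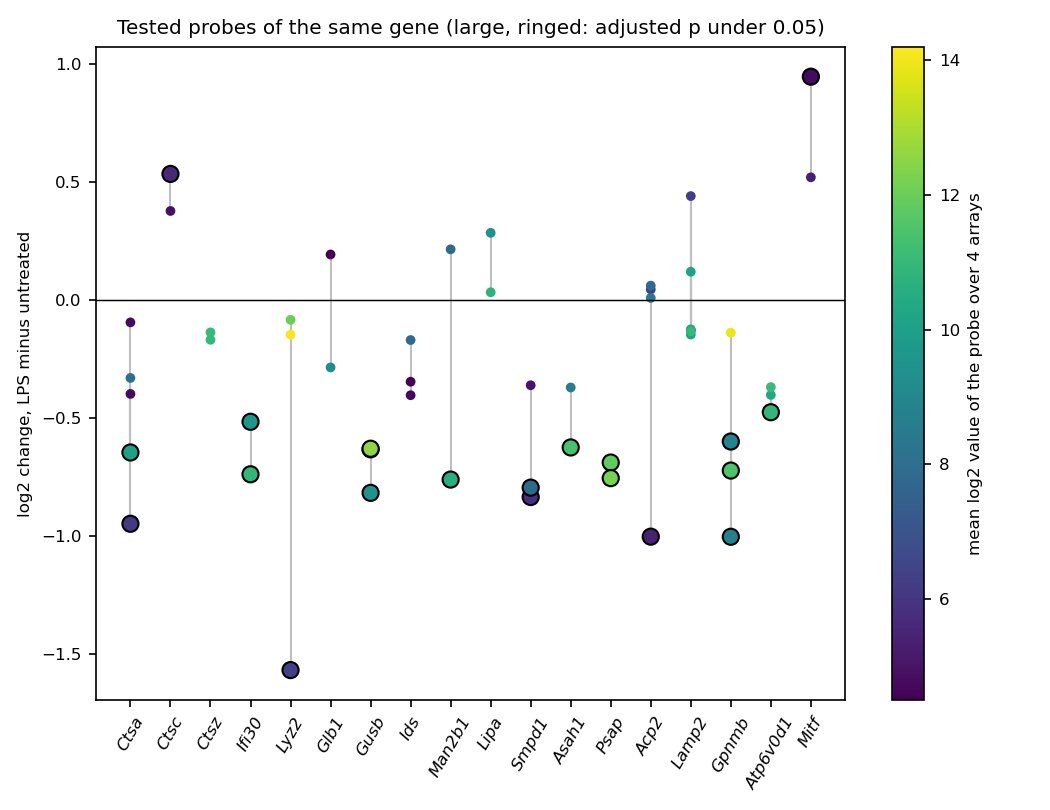
Log2 change, LPS minus untreated, of each tested probe of the 18 genes with at least 2 tested probes; colour is the probe's mean log2 value over the 4 arrays, and large ringed points passed an adjusted p of 0.05. The probes of Gusb and Psap all fell, whereas in Lyz2, Acp2 and Gpnmb the brightest probe lies near 0 and a dimmer one far below it.

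Of the 94 probes of the 44 genes, 75 were tested, 22 were lower with LPS, where 19% of all tested probes were, and 2 were higher, where 13.5% were. In 4 of the 18 genes with several tested probes (Glb1, Man2b1, Acp2 and Lamp2) probes lay on both sides of 0, and in none did probes pass in opposite directions. In 5 genes a dimmer probe passed and the brightest did not, which were Lyz2, Acp2, Gpnmb, Atp6v0d1 and Mitf. Which transcript each probe reads was not analysed here.

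No V-ATPase subunit of the set passed (0 higher and 0 lower of 4 tested, 1 lower at an unadjusted p under 0.05, limma). Atp6v0d1, a subunit of the membrane sector, read 10.92 and 10.88 with LPS and 11.25 and 11.29 without. The groups did not overlap, and the change was -0.37 (SE 0.128, adjusted p = 0.064, limma). Another of its 4 probes passed (-0.47, adjusted p = 0.038, limma), and the gene passed as lower in 7 of the 15 alternatives.

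Atp6ap1, an accessory subunit, was at -0.30, and LPS A (11.66) stood apart from LPS B (12.12). Atp6v1a, the catalytic subunit, was at 0.03 and Atp6v1h, a regulatory subunit, at -0.01. Both changed sign between alternatives.

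Of the MiT/TFE factors, Tfeb was not detected, and Tfe3 and Mitf were higher on both LPS arrays without passing by their brightest probes (0 of 2 called, 2 higher at an unadjusted p under 0.05, limma). Tfe3 read 7.94 and 8.01 with LPS and 7.60 and 7.64 without, a change of 0.35 (SE 0.129, adjusted p = 0.074, limma). Its signal before correction and normalization was 265 and 245 with LPS and 386 and 328 without. Tfe3 passed as higher in 5 of the 15 alternatives, and scaling to the median of all probes turned it to -0.52, past the threshold as lower. Mitf read 5.41 and 5.80 with LPS and 4.97 and 5.20 without, a change of 0.52 (SE 0.173, adjusted p = 0.057, limma). A second Mitf probe was detected with LPS only, at 5.30 and 5.20 against 4.32 and 4.29, and passed as at least 1.61-fold higher (adjusted p = 0.0018, limma). The sign of Mitf stayed positive under all 15 alternatives, with a lowest change of 0.03, and the gene passed as higher in 5 of them. Before correction and normalization the signal of its brightest probe was 121 and 126 with LPS and 137 and 135 without. That of the second probe was 119 and 116 with LPS and 113 and 109 without.

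The changes of genes with and without an E-box in the window overlapped. The 12 tested genes with CACGTG in the window had a median log2 change of -0.26, from -0.74 to 0.42 (-0.20 with Gla and Sgsh at their bounds), and the 25 tested genes without it one of -0.30, from -0.79 to 0.53. Of the 9 genes that fell and had a window, 2 held the core, Ctsa and Ifi30, and both held the palindrome. The other 5 genes with the palindrome had no call: Ctsd at 0.42, Gla with only a bound with LPS, Mcoln1 at -0.24, Atp6v0d1 at -0.37 and Atp6v1a at 0.03. These medians are descriptions, and the difference between them was not tested.

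Lysosomal genes outside the 44, taken from 6 lists, included falls and rises of over 1 on the log2 scale. Of 35 other hydrolases and cofactors 19 were tested, with a median log2 change of -0.55. Of these 11 were lower and 1 was higher, where 21.1% and 13.6% of all genes were. With slide as a random block 5 calls remained past the threshold, all of them falls, and 7 were lost, including the 1 rise. Dnase2a, the nuclease that digests engulfed DNA, read 7.90 and 7.72 with LPS and 9.30 and 9.29 without. It fell by 1.49 (adjusted p = 0.000261, limma), although its dimmer probes were at -0.96 and -0.01. Pla2g15, a lysosomal phospholipase, fell by 1.48. Hyal1, a hyaluronidase, was detected in untreated cells only and was at least 2.39-fold lower with LPS. The riser was Npc2, the soluble cholesterol carrier (0.86, adjusted p = 0.011, limma).

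Of 30 other lysosomal membrane proteins, channels and transporters 25 were tested, with 6 higher, 7 lower and a median of -0.09, where 13.6% and 21.1% of all genes were higher and lower. With slide as a random block 4 higher and 5 lower remained past the threshold. Slc15a3, a peptide and histidine transporter, read 11.44 and 11.21 with LPS and 8.84 and 8.80 without. It rose by 2.50 (adjusted p = 2.47e-05, limma), the largest change in the 6 lists. Mcoln2, a channel related to Mcoln1, rose by 1.47, and the chloride transporter Clcn7 and Cln3 both by 1.09. Slc17a5, the sialic acid exporter, fell by 1.35 and Ctns, the cystine exporter, fell by 1.27. The cation channel Tpcn1 fell by 1.30 (-1.75 without LPS A and -0.82 without LPS B), and it did not pass without untreated B (-1.32, adjusted p = 0.0528, limma). A second Tpcn1 probe fell by 1.24 and another was at -0.32 with no call.

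Of 17 other V-ATPase subunits 14 were tested, with 2 higher and 1 lower, shares near those of all genes or under them. All 3 calls were lost with slide as a random block (adjusted p from 0.0526 for Tcirg1 to 0.0879 for Atp6v0a2, limma). Tcirg1, the a3 subunit of the membrane sector, rose by 0.77, and all 4 of its probes passed, between 0.68 and 0.92. Atp6v0a2, the a2 subunit, rose by 0.64 by its brightest probe, with a second probe at -0.22, and was at -0.23 after scaling to the median of all probes. Atp6v0e2 fell by 0.67.

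Enzymes are tagged with mannose 6-phosphate in the Golgi and sorted to the lysosome by receptors. All 13 genes of this route were tested, with 1 higher and 4 lower, where 13.6% and 21.1% of all genes were. With slide as a random block 2 of the 5 calls remained. Gnptab, the transferase that begins the tag, fell by 0.73, the sorting receptor Sort1 by 0.64 and the adaptor Gga2 by 1.47. M6pr, the cation-dependent receptor of the tag, rose by 0.62. Of 16 genes of nutrient sensing on the lysosome 11 were tested, and 3 were lower, Rragb (-0.79), Lamtor4 (-0.70) and Flcn (-0.50), while none was higher (1 higher at an unadjusted p under 0.05, limma), and the 3 calls were lost with slide as a random block. Of 9 cystatins and other inhibitors of cathepsins 4 were tested and none passed (1 lower at an unadjusted p under 0.05, limma).

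**Figure D5:**
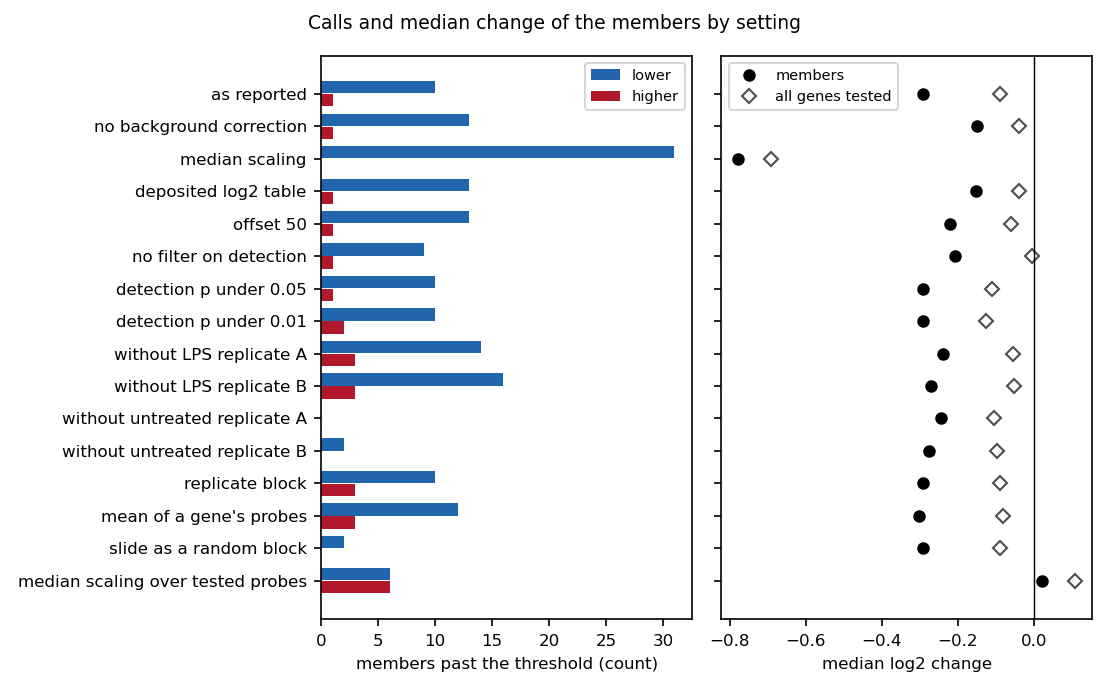
Number of the lysosomal genes past the threshold, lower (blue) and higher (red), and median log2 change of these genes (filled) and of all genes tested (open), as reported and under 15 alternatives. The number lower runs from 0 without untreated replicate A to 31 with median scaling, and the median of the genes is negative in each row except median scaling over tested probes, where it is 0.02.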

How the data were processed

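Per the labels and the study's methods, RNA of RAW G9 cells was amplified, biotin-labelled and hybridised to Illumina mouse bead arrays, and the authors extracted signals with GenomeStudio 2011.1. The deposited single-array files hold signal intensity on a linear scale, the detection p-value of each probe against negative controls, and bead numbers and bead standard errors. The deposited series table holds log2 values of the same arrays, normalized by the authors in a way not given in the sources used here, and served as an alternative.

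Gene names came from the platform annotation (35784 of 45281 probes had 1 symbol, 0 had several, 9497 had none), with symbols updated through the GRCm38.p6 gene table, by Entrez identifier (28620), accession (2637) or symbol (2128), while 2399 kept theirs. Signals were background-corrected from the detection p-values and quantile normalized with an offset of 16 by neqc of limma 3.58.1 (R 4.3.3). The 17211 probes that passed detection on both LPS or both untreated arrays were fitted with lmFit and eBayes, LPS minus untreated, with Benjamini-Hochberg adjustment and a threshold of 0.05. The tested probe with the highest mean value stood for its gene. The procedure was tried on simulated arrays that shared 1 background and 1 noise level, with changes in a small set of bright probes only. That simulation could not test the scaling, the slides or the unequal spread of the pairs. With 2 arrays per condition, their number limits the precision.

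The 44 genes, the other lists and the markers were chosen with earlier results of these data known. All 44 are named. Values per array are given for members past the threshold, for those whose probes disagreed in sign, and for a few more chosen after their values were seen. Of each other lysosomal list, up to 3 rises and 3 falls are named, with Cln3 added for its tie with Clcn7. Alternatives changed the background correction, scaling, offset, detection filter, choice of probe, blocks and arrays. The slide block and the scaling to tested probes were added after seeing the data.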

Additional observations from a re-analysis of the deposited data

How the results depend on the processing

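The precision was limited by 2 arrays per condition and by slides that each held 1 condition, so their effects cannot be told apart. Probes near the background were limited by their signal: 4 of the 44 genes were not detected, and Gla and Sgsh have only a bound with LPS. Detected members numbered 38 at a detection p under 0.05 or 0.01, 42 when 1 array of a condition was enough, and 40 or 41 with single arrays left out. The median member change, -0.29, was -0.15 in the deposited table and also when no background was subtracted.

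Scaling to the median of all probes moved it to -0.78 and gave 0 higher and 31 lower members, 0 and 18 other hydrolases, 2 and 15 other membrane proteins, 0 and 7 other V-ATPase subunits, 0 and 11 tagging and sorting genes, 10 lower nutrient sensing genes and 3 lower cystatins. It turned Acp2 to -0.87, Atp6v1a to -0.85, Ctsc to -0.068, Ctsd and Ctsl to -0.36, Ctss to -0.78, Lipa to -0.61, Naglu to -0.73, Tfe3 to -0.52, Atp6v0a2 to -0.23 and Cd164 to -0.17. Of these, Acp2, Atp6v1a, Ctss, Lipa, Naglu and Tfe3 passed as lower. Scaling to the median of the tested probes, added after seeing the data, moved the member median to 0.023 and gave 6 higher and 6 lower members, 5 higher other V-ATPase subunits and 1 higher nutrient sensing gene. It turned Acp2 to -0.074, Atp6v1a to -0.046, Atp6ap1 to 0.045, Atp6v1h to 0.20, Cd68 to 0.024, Ctsb to 0.61, Ctsz to 0.048, Gla to 0.34, Gpnmb to 0.40, Grn to 0.035, Lamp1 to 0.055, Lamp2 to 0.059, Laptm5 to 0.23, Lyz2 to 0.42 and Sgsh to 0.57. Of these, Ctsb and Sgsh passed as higher. The cause of these shifts was not tested.

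With slide as a random block, also added later and with a correlation of 0.732 taken from the 2 pair differences because limma's duplicateCorrelation could not be fitted, counts were 0 higher and 2 lower members, 0 and 5 other hydrolases, 4 and 5 other membrane proteins, 0 and 0 other V-ATPase subunits, 0 and 2 tagging and sorting genes and 0 lower nutrient sensing genes. At an unadjusted p under 0.05, 1 member was higher and 9 were lower in that limma fit. In the deposited table, and equally with no background subtracted, 3 other V-ATPase subunits and 1 cystatin were lower and 1 nutrient sensing gene was higher, and with an offset of 50 these were 2, 1 and 1. Without a filter on detection 0 other hydrolases and 0 tagging and sorting genes were higher and 1 cystatin was lower. At a detection p under 0.01, 2 members were higher, and 2 other V-ATPase subunits and 1 cystatin were lower. With the mean of a gene's probes, 3 members and 1 other V-ATPase subunit were higher, 1 cystatin was lower, Acp2 was at -0.22 and Lamp2 at 0.0050.

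With single arrays left out, the lone array of a condition being assumed to vary like the pair, 0 to 3 members were higher and 0 to 16 lower. Other hydrolases ranged over 0 to 2 higher and 4 to 13 lower, other membrane proteins over 4 to 8 higher and 3 to 9 lower, other V-ATPase subunits over 0 to 4 higher and 0 to 3 lower, and tagging and sorting genes over 0 to 2 higher and 1 to 4 lower. Nutrient sensing genes ranged over 0 to 1 higher and 0 to 4 lower, and cystatins over 0 to 2 lower. Signs turned for Acp2 (-0.069 to 0.086), Atp6v1a (-0.24 to 0.30), Atp6v1h (-0.045 to 0.028), Ctss (-0.090 to 0.28), Lamp2 (-0.27 to 0.0073), Lipa (-0.26 to 0.32) and Sgsh (-0.31 to 0.042). The replicate letters were tried as a block, although deviations of arrays with the same letter correlated at only 0.145 and the labels do not say that a letter marks a shared day. That replicate block gave 3 higher and 10 lower members.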
